A study of Homo sapiens with 8 samples.

Results

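CTCF and Sp1 peaks were examined at 10 imprinted genes, H19, IGF2, KCNQ1OT1, CDKN1C, MEG3, PEG3, MEST, PLAGL1, SNRPN and GNAS, out of 38912 protein-coding and long noncoding RNA (lncRNA) genes of GENCODE release 44 (hg38). A peak was assigned to a gene when its summit lay in the annotated gene or within 10 kb of it. The peaks came from chromatin immunoprecipitation followed by sequencing (ChIP-seq) in U-2 OS, a human osteosarcoma line, after 6 min in 1% formaldehyde. The CTCF libraries, replicates 1 and 2, are labelled as clone C32, a single clone with FLAG-Halo-CTCF knocked into the endogenous gene, although the series description calls the CTCF cells wild type. The Sp1 libraries, 1 for each of 2 rabbit antibodies, and the rabbit IgG library are titled parental cells but carry the genotype V5-Halo-SP1 endogenous knock-in. All cells thus carried a tagged factor per the genotype labels and no treatment other than crosslinking. CTCF and Sp1 were sequenced in different lines and on different instruments, so target and experiment cannot be told apart. Each CTCF, Sp1 and IgG library has its own peak list, and the 3 input libraries have none. The lists hold neither read depth nor allele information.

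Imprinted genes are expressed mainly from the copy inherited from 1 parent, because differentially methylated regions set in the germline mark the parental copies differently. CTCF, a zinc finger protein that organises chromatin loops and blocks enhancers, does not bind several of its sites when their CpGs are methylated. At H19 and IGF2 it is known to bind repeats in the unmethylated control region of the maternal copy, which keeps enhancers from reaching IGF2. Sp1 is a zinc finger activator that recognises GC boxes (GGGCGG), common in CpG-rich promoters. Whether these genes are imprinted in U-2 OS cannot be read from the peak lists, which merge both parental copies.

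The best matches to a CTCF core under the CTCF summits are shown first. Each is a 20-base stretch of hg38 within 50 bp of the summit of the strongest CTCF peak found in both replicates at its gene. Each is written 5′ to 3′ on the strand given, with the 12-base core in capitals. It is the best match there to a matrix of the CTCF core, built from shared CTCF peaks outside the windows of these genes. The SNRPN and H19 matches did not reach the score threshold given below, so their capitals mark no recognised site.

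CDKN1C, chr11:2888548-2888567, minus strand: ctggCCAGCAGAGGGCgcag
IGF2, chr11:2156629-2156648, minus strand: gcgaCCAGCAGATGGCatca
MEG3, chr14:100851312-100851331, plus strand: ttgcCCACCAGGGGGCagca
PEG3, chr19:56837564-56837583, minus strand: acttCCTCCAGGGGGCgcca
PLAGL1, chr6:144013593-144013612, minus strand: agagCCACTAGATGGCgcct
GNAS, chr20:58870453-58870472, plus strand: ctccCCACCAGAGGTCagca
SNRPN, chr15:24847219-24847238, minus strand: gttgATGCTAGGTGGCgctg
H19, chr11:1999924-1999943, plus strand: aaccCCAGTTGGGGCGggct

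At the 2 stronger H19 peaks this matrix gave a poor match, and copies of a CpG-rich repeat lay within 16 bp of the summits. The word CGNGGNGGC, taken from these copies after they had been seen, occurred 7 times in the H19 CTCF peaks, every time on the minus strand, which is the strand of H19 itself. The 7 copies had 4 different sequences with 1 to 4 CpGs each, and are listed from the H19 promoter outwards. The copy at chr11:1998607-1998626 matched the word, but its flanking bases differed from those shared by the other copies. It is counted as a match to the word and may not belong to the repeat.

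H19 copy at chr11:1998607-1998626: cccaCAGCGGGGTGGCtggg
H19 copy at chr11:1999966-1999985: gtggCCGCGCGGCGGCagtg
H19 copy at chr11:2000372-2000391: gtggCTGCGCGGCGGCagtg
H19 copy at chr11:2000778-2000797: gtggCCGCGTGGCGGCagtg
H19 copies at chr11:2002211-2002230, chr11:2002612-2002631 and chr11:2003017-2003036: gtggCCGCGCGGCGGCagtg

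CTCF was called near most of the genes and Sp1 near fewer. A CTCF summit lay in the window of 8 of the 10 genes in replicate 1, in replicate 2 and in both, against 63.7%, 57.7% and 57.0% of all genes. The exceptions were KCNQ1OT1 and MEST. Of protein-coding genes alone, 75.6%, 69.6% and 69.0% had such a summit. Sp1 antibody 1 had a summit at 4 of the 10 (H19, IGF2, CDKN1C and PEG3; 34.9% of all genes) and antibody 2 at 3 (CDKN1C, PEG3 and SNRPN; 24.9%). Both antibodies had one at CDKN1C and PEG3 (20.3% of all genes), and 5 of the 10 had CTCF in both replicates together with Sp1 of either antibody (27.6%). Among protein-coding genes alone the Sp1 shares were 47.7% with antibody 1, 34.3% with antibody 2 and 28.5% with both, and 39.5% had CTCF in both replicates together with Sp1. The Sp1 counts of the 10 genes, for each antibody and for both, thus lay close to the shares of all genes and of protein-coding genes. With a window of 50 kb CTCF stayed at 8 of the 10 genes, against 84.2% of all genes. With 10 genes these counts are descriptions, and no test was made.

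Window length differs between genes, so summits were also counted per 100 kb of window. The 10 genes held 24 CTCF summits in replicate 1, or 2.90 per 100 kb against 1.68 over all genes, and 23 in replicate 2, or 2.78 against 1.38. The 4 summits of Sp1 antibody 1 gave 0.483 per 100 kb against 0.407, and the 3 of antibody 2 gave 0.363 against 0.268. In CTCF replicate 1 the summit farthest from its gene but still inside the limit was 7882 bp from IGF2 (fold 53.8), and the nearest one outside lay 14959 bp from IGF2 (fold 29.2). In replicate 2 the corresponding distances from IGF2 were 7890 and 14970 bp (folds 26.6 and 16.9). For Sp1 antibody 1 the corresponding summits lay 6843 and 16318 bp from CDKN1C (folds 7.70 and 9.94). For antibody 2 they lay 6927 bp from CDKN1C and 16127 bp from H19 (folds 39.5 and 5.15).

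**Figure D1:**
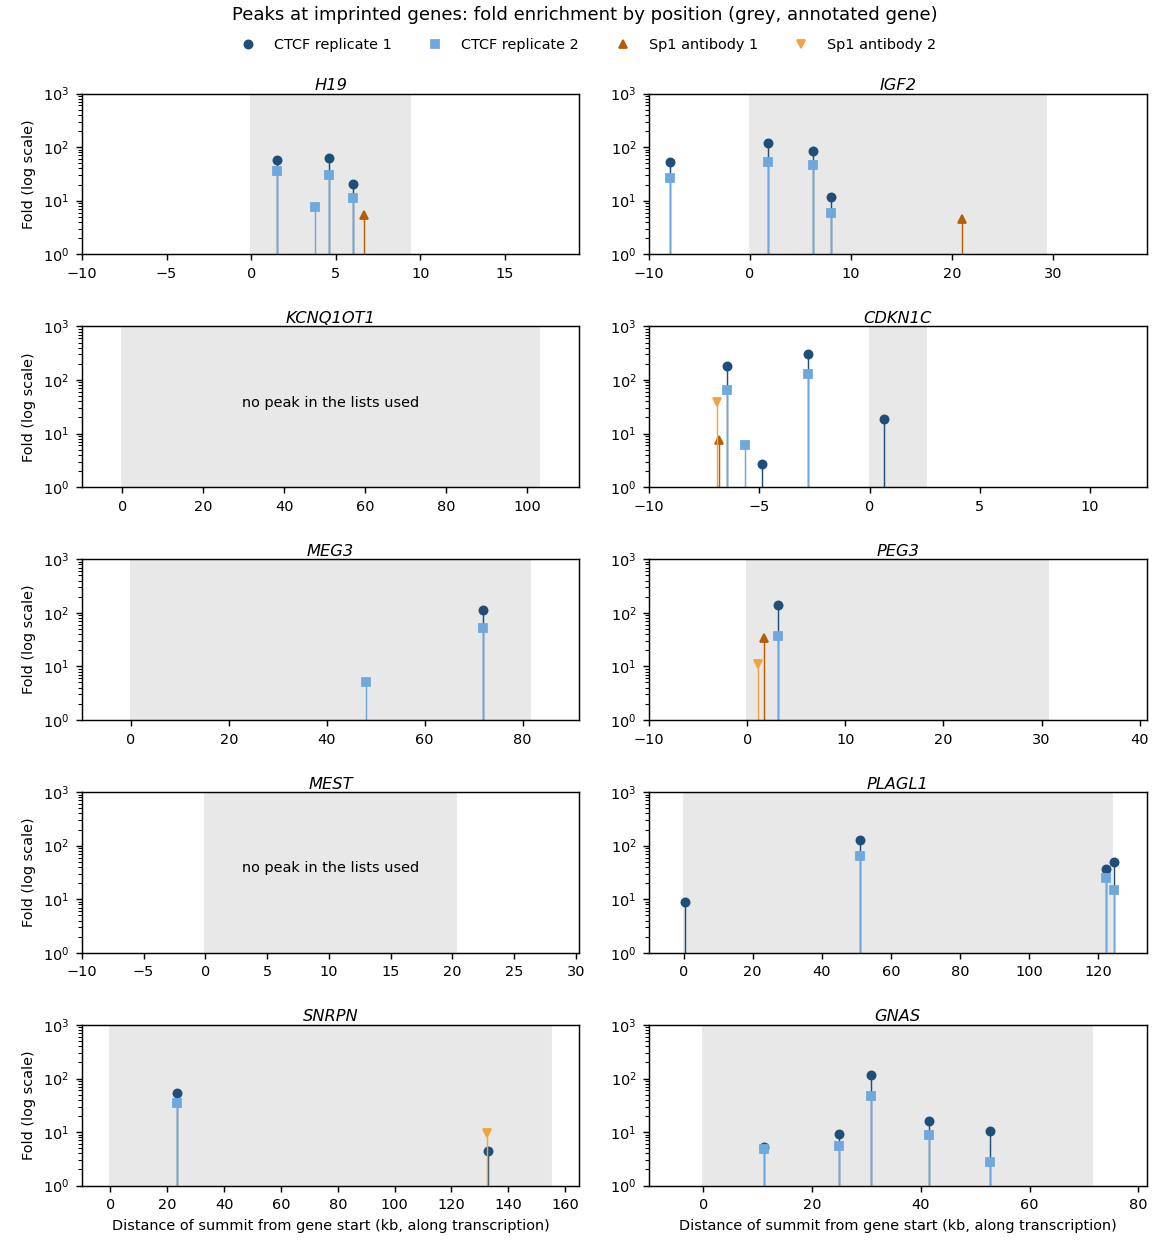
Fold enrichment over control (log scale) of every CTCF and Sp1 peak at the 10 genes against the distance of its summit from the gene start in kb, counted along transcription, with the annotated gene in grey. CTCF peaks stand at 8 genes and Sp1 peaks at 5, with none at KCNQ1OT1 or MEST.

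H19, a maternally expressed lncRNA, had CTCF peaks over the repeats upstream of its promoter. In replicate 1, summits stood 0.64, 2.10 and 5.14 kb upstream of the transcript start nearest the Sp1 summit, with folds of 20.3, 63.7 and 57.0. Fold here is the enrichment over control that the authors' peak caller gave for the summit. In replicate 2 they stood at 0.65, 2.10, 2.91 and 5.17 kb with folds of 11.4, 30.6, 7.57 and 36.3. The annotation extends a longer H19 transcript across this stretch, so each summit is intronic in H19. The −log10 q values were 71.2, 333 and 289 in replicate 1 and 33.5, 145, 17.0 and 180 in replicate 2.

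The copies of the word stood 742, 2101, 2507, 2913, 4346, 4747 and 5152 bp upstream of the same start. Neighbouring copies were 401 to 406 bp apart within each of the replicate 1 peaks that held 3 of them, and 1433 bp apart between these peaks. The summits 2.10 kb upstream lay 3 bp (replicate 1) and 4 bp (replicate 2) from the centre of a copy, and those near 5.15 kb lay 7 and 16 bp from another. The replicate 2 summit at 2.91 kb lay 5 bp from the copy at 2913 bp, inside the wide replicate 1 peak. The copy at 742 bp lay 96 bp from the nearest replicate 2 summit. The copies at 2507, 4346 and 4747 bp lay 398 bp or more from any summit, although within peaks. Of 34125 CTCF peaks shared by the replicates, 13.9% held the word at all, 3.07% held it 2 or more times, and 3.05% had it within 50 bp of the summit.

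**Figure D2:**
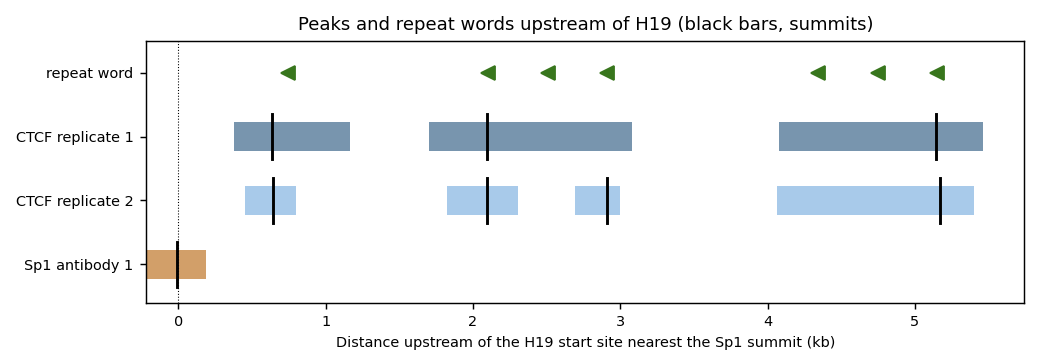
Peak intervals (bars) and summits (black ticks) of each list, and copies of the repeat word (triangles pointing along H19 transcription), against distance in kb upstream of the H19 start nearest the Sp1 summit. Summits stand on the copy at 2101 bp in both CTCF replicates, on that at 5152 bp in replicate 1 and on that at 2913 bp in replicate 2. The last replicate 2 summit lies just outside the copy at 5152 bp, 16 bp from its centre. The Sp1 antibody 1 summit lies 12 bp from the start.

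IGF2 encodes a fetal growth factor expressed from the paternal copy. It had 4 CTCF peaks, each in both replicates. The strongest was in an intron at chr11:2156128-2157167 (replicate 1), with a fold of 122 in replicate 1 and 52.2 in replicate 2. Another intronic peak had 85.5 and 46.7, and a weaker one 11.9 and 5.80. The fourth lay in the neighbouring gene TH, which encodes tyrosine hydroxylase, 7882 bp from the gene, with 53.8 and 26.6. The best sites of the strongest intronic peak and of the TH peak were on opposite strands. The intronic peaks also lay within the readthrough gene INS-IGF2.

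CDKN1C and KCNQ1OT1 belong to the neighbouring imprinted domain on chromosome 11. CDKN1C, a maternally expressed inhibitor of cyclin-dependent kinases, had the strongest peak of the 10 genes. It lay 2797 bp upstream within SLC22A18AS at chr11:2888154-2889015, with folds of 305 and 131 and −log10 q values of 2318 and 1229. These folds stood at percentiles 99.9 and 99.6 of their lists. A further peak 6487 bp upstream had 181 and 64.6, and replicate 2 had an additional peak of 6.05 under the same replicate 1 interval. Replicate 1 alone had a peak in a coding exon of CDKN1C (fold 18.8, −log10 q 64.0). Among the 1836 replicate 1 peaks within 10% of that fold, 98.5% were overlapped in replicate 2. Its best site within 50 bp of the summit held 4 CpGs but did not reach the score threshold given below. That site passed only with the re-estimated matrix, also described below. Another site of the peak, 83 bp from the summit, passed the threshold and held 2 CpGs. A further peak of replicate 1 alone, 4876 bp upstream of CDKN1C, had a fold of 2.70 and a −log10 q of 1.68, and 15.5% of replicate 1 peaks of like fold were overlapped. KCNQ1OT1, the paternally expressed antisense lncRNA that silences this domain, had no peak in the lists used here, and its nearest CTCF summit was 64.4 kb away with 234 and 124. Its nearest Sp1 summits were 153 kb away with 25.2 (antibody 1) and 10.3 (antibody 2).

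MEG3, a maternally expressed lncRNA, had a CTCF peak in a noncoding exon at chr14:100850865-100851716 with folds of 113 and 51.9 and summits 1 bp apart. Replicate 2 alone had a peak of 5.05 in MEG3, 12 bp from an annotated MEG3 start. Of 1932 replicate 2 peaks of like fold, 92.9% were overlapped in replicate 1. PEG3 encodes a paternally expressed zinc finger protein. Its CTCF peak, chr19:56837023-56838824, was intronic with folds of 142 and 36.6. It held 5 CTCF sites, 4 on the minus strand, which is that of PEG3, and 1 on the plus strand.

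PLAGL1, a paternally expressed zinc finger transcription factor, had shared CTCF peaks in an intron (126 and 64.3), in a coding exon (36.9 and 24.4) and 126 bp beyond the end of the gene (50.1 and 14.8). Replicate 1 alone had a peak of 8.78 at 377 bp from a PLAGL1 start, and 59.1% of replicate 1 peaks of like fold were overlapped in replicate 2. SNRPN, which encodes a splicing protein from the paternal copy, had 1 shared intronic peak with 52.9 and 35.6 and, in replicate 1 alone, a weak intronic peak of 4.34, a fold at which 14.7% were overlapped.

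GNAS, a complex locus that yields the stimulatory G protein alpha subunit and other transcripts, had 5 shared peaks, the most of the 10 genes. The strongest was intronic with 114 and 46.4. The others had 16.0 and 8.73, 9.34 and 5.46, 5.33 and 4.78, and 10.4 and 2.71. The peak of 5.33 lay 5 bp from a start of the antisense gene GNAS-AS1, and that of 10.4 lay 59 bp from a GNAS start in an untranslated exon. MEST, a paternally expressed hydrolase-like gene, had no peak in the lists used here. Its nearest CTCF summit was 54.7 kb away with 17.1 and 9.84. The nearest Sp1 summit of antibody 1 was 44.9 kb away (10.5) and that of antibody 2 was 341 kb away (7.03).

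The replicates placed these CTCF peaks at nearly the same positions but with lower folds in replicate 2. Of the 24 replicate 1 peaks, 20 were overlapped by a replicate 2 peak (83.3%, 95% Wilson interval 64.1 to 93.3%), against 79.8% of the whole list. Of the 23 replicate 2 peaks, 22 were overlapped by replicate 1 (95.7%, 79.0 to 99.2%), against 95.4%. These intervals cover counting error only. Summits of the 20 shared peaks were 1 to 33 bp apart with a median of 6.50 bp, against 8.00 bp over all shared peaks. The log2 ratio of replicate 2 over replicate 1 was below 0 at each of the 20, from -1.96 to -0.16 with a median of -1.03. The median over all 34125 shared peaks was -0.89, so folds were lower in replicate 2 over the whole list.

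The ratio was lowest at PEG3 (log2 -1.96), at the GNAS promoter peak (-1.94) and beyond PLAGL1 (-1.76). As low a ratio or a lower one was found in 1.52%, 1.69% and 3.61% of all shared peaks. The ratio was nearest to equal at the GNAS-AS1 start (-0.16). Of the member peaks, 14 of 24 in replicate 1 and 13 of 23 in replicate 2 lay above the median fold of their list, 27.5 and 20.0. Summits within 1 kb of any annotated start site numbered 10 of 24 and 10 of 23, against 20.4% and 18.5% of the lists. The lists include peaks far from genes, whereas these peaks were chosen for lying in or near a gene. The shares are therefore not like for like.

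**Figure D3:**
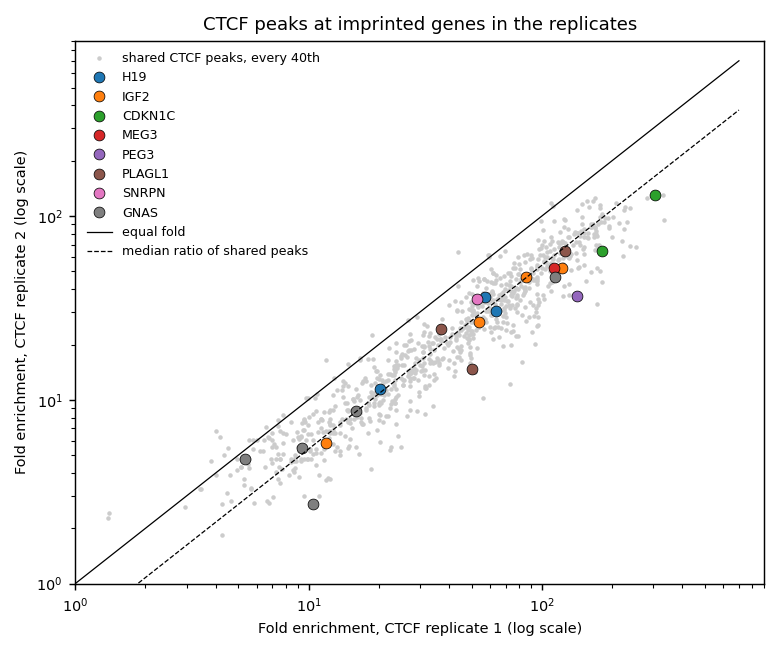
Fold enrichment of CTCF peaks in replicate 2 against replicate 1, both on log scales, for the 20 shared peaks at imprinted genes (coloured) and every 40th of all shared peaks (grey). The solid line is equal fold and the dashed line the median ratio of shared peaks. PEG3 and the GNAS promoter peak with folds of 10.4 and 2.71 lie farthest below the dashed line.

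Most genes other than H19 had a recognisable CTCF site under the summit. A site passed the score reached by 1.00% of windows 500 bp away in 13 of the 20 shared peaks (65.0%, 43.3 to 81.9%), against 68.4% of all shared peaks. All 3 H19 peaks, the SNRPN peak, the IGF2 peak of 85.5 and the GNAS peaks of 16.0 and 10.4 had none within 50 bp of the summit. Farther from the replicate 1 summit, the H19 peak of 20.3 held a passing site at 185 bp and the IGF2 peak of 85.5 at 558 bp. With a matrix re-estimated from the passing sites, an alternative added after the data had been seen, 12 of 20 passed (60.0%) against 79.4%. Among those 12 sites 8 held a CpG (66.7%, 39.1 to 86.2%), against 39.9% of all such sites. The interval spans that share, but it treats sites of the same gene as independent, and no test was made. With the first matrix 8 of the 13 passing sites held a CpG (61.5%), and the share over all sites of that matrix is not given here.

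On the re-estimated matrix the H19 repeat in its most frequent form reached percentile 6.65 of the site scores of shared peaks. The H19 peaks over it stood at percentiles 72.0 and 68.8 of fold in replicate 1. SNRPN resembled them, with a site score at percentile 5.06 and a fold at 66.5. CDKN1C and MEG3 had high values on both measures, with site scores at 95.6 and 96.4 and folds at 99.9 and 88.7. The GNAS-AS1 start peak had the opposite order, with a site score at 61.8 and a fold at 10.4.

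**Figure D4:**
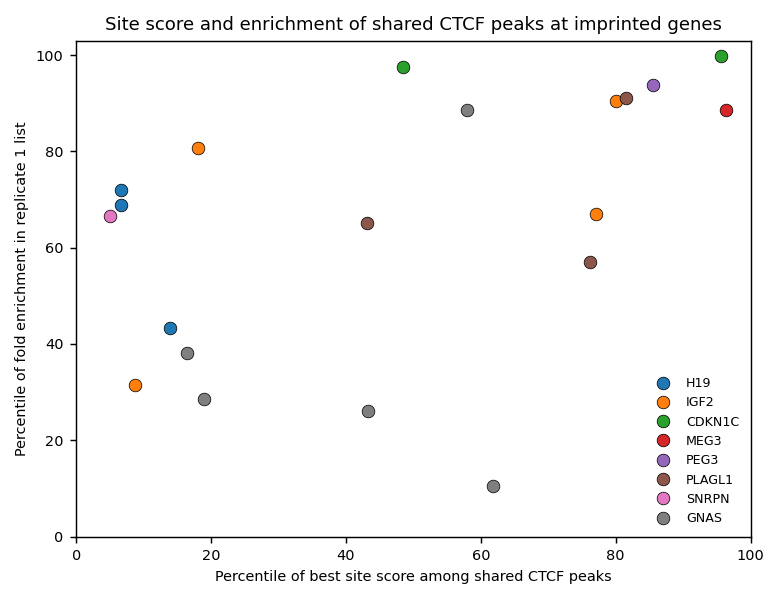
Percentile of fold enrichment in the replicate 1 list against the percentile of the best site score (re-estimated matrix) among all shared CTCF peaks, for the 20 shared peaks at imprinted genes. Of the points below percentile 20 of site score, the 2 strongest H19 peaks, SNRPN and 1 IGF2 peak stand above percentile 60 of fold.

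Sp1 peaks were fewer, and the antibodies shared them only in part. Of the 4 antibody 1 peaks 2 were overlapped by antibody 2, against 49.2% of the list, and of the 3 antibody 2 peaks 2 were overlapped by antibody 1, against 71.8%. Each antibody has 1 library, so no value of Sp1 has a replicate check. Summits within 1 kb of any annotated start site numbered 2 of 4 with antibody 1 and 0 of 3 with antibody 2, against 82.2% and 73.8% of the lists. These lists also include peaks far from genes. The median fold was 7.72 in the antibody 1 list and 6.75 in the antibody 2 list.

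The antibodies ranked CDKN1C and PEG3 in opposite order. At CDKN1C, fold was 7.70 with antibody 1 and 39.5 with antibody 2, at summits 84 bp apart and 6843 and 6927 bp upstream of the gene within SLC22A18AS. The log2 ratio of antibody 2 over antibody 1 was 2.36, at percentile 95 of the 4281 shared Sp1 peaks, whose median was -0.64. At PEG3, fold was 33.8 with antibody 1 and 11.1 with antibody 2, at intronic summits 543 bp apart, with a log2 ratio of -1.61 at percentile 7.92. Antibody 1 alone had peaks at H19 (fold 5.49, −log10 q 5.84) and IGF2 (4.59 and 3.87), both under the median of its list. Their summits lay 12 bp from an H19 start and 74 bp from an IGF2 start. Antibody 2 alone had a peak in an intron of SNRPN (9.56 and 19), 1279 bp from an SNRPN start.

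**Figure D5:**
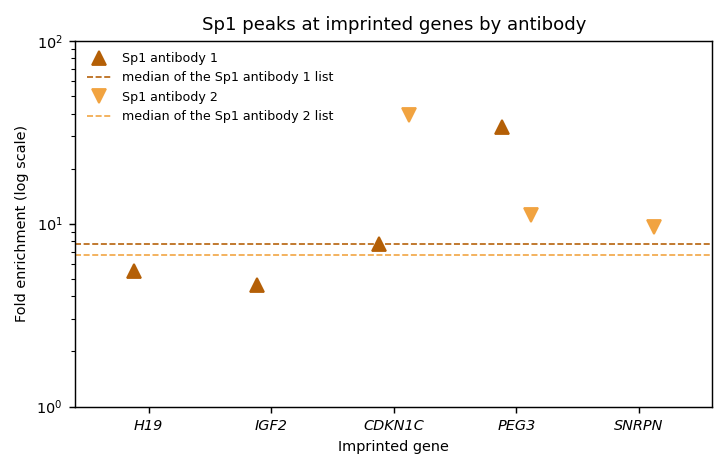
Fold enrichment (log scale) of the Sp1 peaks at imprinted genes with each antibody, with the median of each list as a dashed line. Antibody 2 is higher at CDKN1C and antibody 1 at PEG3, and H19, IGF2 and SNRPN have a peak with a single antibody.

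The windows at the Sp1 summits of IGF2, PEG3 and CDKN1C are printed because their GC boxes differ between the genes. Each is plus strand of hg38 from 50 bp before to 50 bp after the summit, with GC boxes in capitals on either strand. They cover no exon.

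IGF2, antibody 1, chr11:2137329-2137429: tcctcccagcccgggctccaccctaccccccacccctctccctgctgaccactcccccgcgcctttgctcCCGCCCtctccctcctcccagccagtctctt
PEG3, antibody 1, chr19:56839005-56839105: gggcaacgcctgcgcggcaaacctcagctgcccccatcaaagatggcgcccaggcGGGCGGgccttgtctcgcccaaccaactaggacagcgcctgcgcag
PEG3, antibody 2, chr19:56839548-56839648: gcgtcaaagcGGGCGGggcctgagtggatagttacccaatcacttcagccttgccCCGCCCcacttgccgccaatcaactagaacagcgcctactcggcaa
CDKN1C, antibody 1, chr11:2892568-2892668: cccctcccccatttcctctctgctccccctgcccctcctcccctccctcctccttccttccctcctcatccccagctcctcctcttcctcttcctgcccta
CDKN1C, antibody 2, chr11:2892652-2892752: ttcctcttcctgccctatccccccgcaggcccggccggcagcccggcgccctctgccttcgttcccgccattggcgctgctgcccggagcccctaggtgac

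A GC box lay within 50 bp of the summit in 3 of the 4 antibody 1 peaks, against 52.8% of that list, and in 1 of the 3 antibody 2 peaks, against 36.7%. The CDKN1C window of antibody 1 held no GC box and 0 CpGs, and the antibody 2 window, centred 84 bp away, held no GC box and 9 CpGs. The medians over the lists were 8 and 7 CpGs. Within the whole peak CDKN1C had 3 GC boxes with either antibody, or 5.09 and 3.42 per kb, and widening the window to 100 bp on each side gave 4 of 4 antibody 1 peaks a box, against 67.9% of the list. The H19 peak held 3 GC boxes, the IGF2 peak 2 and the SNRPN peak 1. The PEG3 peaks were among the widest, at 2831 bp with antibody 1 and 2341 bp with antibody 2, and 0.0230% and 0.184% of their lists were as wide. They held 20 and 19 GC boxes, or 7.06 and 8.12 per kb against list medians of 4.21 and 2.91, and 25.1% and 13.8% of the lists were as dense.

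The PEG3 peaks also contained AAGATGGC, a word found in sites of the zinc finger protein YY1, which was searched after the sequence had been seen. The antibody 1 peak held 9 copies on both strands together and the antibody 2 peak 6. The word occurred in 7.40% and 6.04% of peaks of these lists, and 0.0115% and 0.0167% held as many, which in each list is the PEG3 peak alone. These counts are per whole peak, and the PEG3 peaks are far wider than the list medians of 533 and 482 bp. Density of the word per kb was not computed, so its rarity is not adjusted for width. The words TCGCGAGA and CCGGAA were also searched, and each had 0 matches in every Sp1 peak at these genes. TCGCGAGA occurred in 4.05% of all antibody 1 peaks and 2.65% of all antibody 2 peaks, and CCGGAA in 39.8% and 40.5%. AAGATGGC was thus picked from several words tried. The SNRPN peak held 1 copy of AAGATGGC, 24 bp from its summit, and no GC box within 50 bp. The copy is in capitals in this stretch of the plus strand.

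SNRPN, antibody 2, chr15:24956297-24956326: gcagctccttcAAGATGGCcgccgctgcag

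The word lay within 50 bp of the summit in 1.93% of antibody 1 and 1.32% of antibody 2 peaks. A match is a description of the letters, and no binding of YY1 was measured.

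Sp1 and CTCF met at 3 of the genes, with summits well apart. Of the antibody 1 peaks 2 of 4 overlapped a CTCF peak of either replicate, against 30.4% of the list, and of the antibody 2 peaks all 3 did, against 28.0%. At CDKN1C the Sp1 summits lay 356 and 440 bp from the CTCF summit of the replicate 1 peak with fold 181. At PEG3 they lay 1470 and 2013 bp away, with the overlap resting on the width of the peaks. At SNRPN the CTCF peak was the weak one of replicate 1 alone, 331 bp away. At H19 and IGF2 the Sp1 peaks overlapped no CTCF peak. The IgG list of 106 peaks had 0 summits in the windows of the 10 genes, and 0 of the 54 CTCF and Sp1 peaks there overlapped an IgG peak. So short a list would seldom meet these windows in any case, so the counts of 0 say little. The IgG library also came from the Sp1 cells and not from clone C32.

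A further list of 40 imprinted genes was counted in the same way. Several lie beside the 10 genes and share CTCF peaks with them. INS and IGF2-AS share with IGF2, SLC22A18 with CDKN1C, ZIM2 with PEG3, HYMAI with PLAGL1 and GNAS-AS1 with GNAS. The 40 genes are thus not a separate check on the 10. CTCF was called at 31 in replicate 1 (77.5%), at 30 in replicate 2 (75.0%) and at 29 in both (72.5%). The shares of protein-coding genes, 75.6%, 69.6% and 69.0%, were close to these, and those of all genes were lower. Sp1 antibody 1 had a peak at 17 (42.5%) and antibody 2 at 9 (22.5%), both below the shares of protein-coding genes. Against all genes the share was higher with antibody 1 and lower with antibody 2. The CTCF density of the 40 genes was 1.47 summits per 100 kb in replicate 1 and 1.27 in replicate 2, below the 1.68 and 1.38 over all genes. Both antibodies had a peak at 8 of the 40, and several of these share a peak with a gene above. ZIM2 shares the PEG3 peaks. SLC22A18 shares the peaks of both antibodies near CDKN1C (7.70 and 39.5) and has a further antibody 1 peak of 9.94. At KCNQ1, the potassium channel gene that hosts KCNQ1OT1, fold was 25.2 with antibody 1 and 10.3 with antibody 2. MKRN3, a paternally expressed ubiquitin ligase gene of the SNRPN domain, had 10.5 and 145. NNAT and BLCAP share a peak with 9.90 and 4.17, L3MBTL1 had 14.6 and 7.65, and OSBPL5 had 5.65 and 8.93.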

How the data were processed

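Reads were trimmed, aligned to hg38, cleared of duplicates and used for peak calling in each library by the authors. The submitters' processing notes name cutadapt 2.6, Bowtie2 2.4.5, SAMtools 1.15.1, MACS2 2.2.7.1, bedtools 2.27.1 and deepTools 3.5.4, and the study's methods name other versions of Bowtie2 and SAMtools. The 5 deposited lists (CTCF replicates, Sp1 antibodies, IgG) give per peak the authors' fold enrichment (a ratio to control), −log10 p and −log10 q at the summit, a score derived from it that was not used, and the summit offset. The lowest deposited −log10 q was 1.30 to 1.43. Input libraries were not analysed here. The lists hold no read depth, and read numbers given by the study were not used here, which limits what an absent peak means.

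Summits (interval start plus offset) were assigned to GENCODE 44 genes, and overlap meant at least 1 shared bp, in Python 3.11.15 with numpy 2.4.6 and SciPy 1.17.1. All 10 genes and every peak in their windows are described, and of 40 further imprinted genes (genes on chromosome 8 left out) those with both Sp1 antibodies are named. Sites were scored by a 20-base matrix from 6375 exact core matches (pseudocount 1). The scripts were tested on simulated data. With 1 library per Sp1 antibody and 2 for CTCF no p-value was computed, and Wilson intervals cover counting error only. The genes and lists were chosen with earlier results of these data known. Alternatives changed the window, the q-value threshold, overlap, replicate, gene class, site window, threshold and matrix. The sequence at 1 further Sp1 summit is not reported here.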

Additional observations from a re-analysis of the deposited data

How the results depend on the processing

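Each count of genes, peaks, overlaps and sites was recomputed under the alternatives, and 45 such values stayed within 1.5 times the reported count and 13 did not. CTCF remained at 8 genes with either replicate list alone. Genes with both Sp1 antibodies fell from 2 to 1 with windows of 0 and 5 kb, because the CDKN1C summits lie farther out. A window of 50 kb gave 42 and 36 CTCF peaks, 7 and 5 Sp1 peaks (antibodies 1 and 2) and 5 genes with antibody 2. When summits had to lie within 100 bp, 1 Sp1 peak of each antibody was matched by the other (PEG3 was lost), and 0 of either antibody met CTCF. With reciprocal overlap of 50%, 0 antibody 1 peaks and 1 antibody 2 peak met CTCF. Without replicate 1 or 2 of CTCF, 2 antibody 1 peaks and 2 to 3 antibody 2 peaks overlapped CTCF, and the SNRPN overlap rests on replicate 1. The share of all genes with a peak followed the window, from 33.2% (0 kb, 7 of the 10 genes) to 84.2% (50 kb, 8 of the 10) for CTCF in both replicates. At 10 kb the count of 8 stood against 57.0% of all genes and 69.0% of protein-coding genes. With 10 genes these counts do not place the group above or below either share. No paired analysis was possible because replicate numbers tie the CTCF libraries to inputs alone, and the inputs were not analysed here. Read numbers given by the study were not used here, so weak or missing peaks were not weighed against depth.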
